A study of Homo sapiens with 12 samples.

Results

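Cells that kept SOX2 through 3 days of WNT3A and FGF8 were compared across all genes with cells left in the basal medium alone. The cells are ESI017 human embryonic stem cells in which SOX2 carries the fluorescent protein mCitrine (SOX2::mCitrine), a line of human pluripotent stem cells. All groups were grown as colonies on printed adhesive micropatterns, without serum, in N2B27, a neural basal medium. The 2 control libraries had N2B27 alone. The 5 treated libraries had FGF8 (200 ng/ml) added to N2B27, together with WNT3A at 100 ng/ml (2 libraries), 300 ng/ml (1 library) or 1000 ng/ml (2 libraries), and were sorted as SOX2-positive. These 7 of the 12 libraries of the series are defined by the treatment and gate in their labels, with the doses pooled. The other 5 hold the SOX2-negative cells of the same treated colonies and serve here for comparison. The labels name no sort for the controls, so the effects of treatment and of sorting cannot be told apart. Everything comes from 1 cell line in a first run and 1 repeat, in which the dose of 300 ng/ml was left out, and the spread behind each p-value is that between libraries of this line.

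SOX2 is a transcription factor shared by pluripotent cells, where it acts with POU5F1 and NANOG, and by neural progenitors, where it is kept while those partners are lost. Human pluripotent cells placed in a neural basal medium without added signals tend to take an anterior neural or ectodermal course. WNT, working through beta-catenin, and FGF, working through ERK, are signals of the posterior end of the embryo and of the primitive streak, the site where mesoderm and endoderm form. Nodal, a TGF-beta family ligand that needs the co-receptor encoded by TDGF1, maintains pluripotency at low activity and drives endoderm at high activity. The series title asks how endogenous Nodal changes the reading of WNT. The labels give none of the libraries a treatment aimed at Nodal.

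Library totals ran from 16483717 to 28079048 estimated counts over the 7 libraries. Of 35940 gene symbols, 15760 passed a filter on low counts and were tested with edgeR's quasi-likelihood test. At a Benjamini-Hochberg adjusted p under 0.05, 4533 genes (28.8%) were called, 2407 higher (15.3%) and 2126 lower (13.5%) in the SOX2-positive treated cells. Changes of at least 4-fold were found in 501 of the higher genes (3.18% of those tested) and 242 of the lower ones (1.54%). The median log2 fold change over all genes tested was 0.01. All 4533 called genes had 1 direction in both runs, and 4482 had groups that did not overlap. Both counts come from the libraries that made the calls, so they add no independent evidence. Over all tested genes, called or not, all 5 treated libraries lay above both controls in 22.8% and below both in 22.4%. Either control weighs on this count: 3007 genes were called without control replicate 1 and 1850 without control replicate 2. With all 12 libraries in 1 fit, 1531 were called. The first principal component (52.4% of the variance) set the controls (-72.1 and -87.8) apart from the treated libraries (18.3 to 44.6). The second (16.6%) set the treated libraries of the repeat (27.9 and 53.7) apart from those of the first run (-39.9 to -3.3). The controls of the first run and the repeat lay close together on it (-6.6 and -9.3). Among treated libraries it also fell with WNT3A dose within each run. The first run had -3.3, -22.5 and -39.9 at 100, 300 and 1000 ng/ml, and the repeat 53.7 and 27.9 at 100 and 1000 ng/ml. Below, levels are CPM (counts scaled to a common library size) on a common TMM scale. Treated values are always given in the order WNT3A 100 replicates 1 and 2, WNT3A 300, and WNT3A 1000 replicates 1 and 2. An error behind a log2 fold change is its standard error (SE).

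SOX2 (ENSG00000181449, chromosome 3, 181711924 to 181714436, GRCh38) stood at 651 and 676 CPM in the controls. In the treated libraries it stood at 467, 445, 456, 418 and 421 CPM. SOX2 RNA was 1.5-fold lower in the sorted cells than in the controls, with no overlap (log2 fold change -0.59 ± 0.08, edgeR adjusted p = 0.00064). With all 12 libraries in 1 fit this call was lost (adjusted p = 0.27). In the SOX2-negative libraries SOX2 lay at 1.85 to 5.98 CPM. This checks the SOX2-negative gate only, and not whether SOX2-negative cells entered the SOX2-positive libraries.

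FOXD3 (ENSG00000187140, chromosome 1, 63323041 to 63325126), a forkhead factor of pluripotent cells and of early neural crest, was nearly absent from the controls at 0.864 and 0.329 CPM. It reached 39.9, 28, 41.9, 39.1 and 33.1 CPM in the treated cells (64.0-fold, log2 fold change 6.0 ± 0.33, edgeR adjusted p = 5.7e-06). SOX10, which marks later crest, was not called (log2 fold change -0.09 ± 0.24, edgeR adjusted p = 0.81). Of 13 genes of the neural crest list tested, FOXD3 among them, 2 were higher and 4 lower, with a median of -1.29 (4 higher without WNT3A 100 replicate 2, 1 higher and 2 lower without control replicate 2). The summed CPM of 6 crest markers (SOX10, SNAI2, PAX3, FOXD3, TFAP2A and TFAP2B) was 217 and 163 in the controls and 46.7 to 83.6 in the treated libraries. TFAP2A, a gene also of surface ectoderm whose values are given below, made up most of the control sum. Of the 6 markers, 1 was called higher and 1 lower. TDGF1 (ENSG00000241186, chromosome 3, 46574534 to 46582463), the Nodal co-receptor, went from 21.3 and 14.4 CPM to 397, 349, 390.3, 387 and 411 CPM (21.8-fold, edgeR adjusted p = 2.1e-06). Both genes varied little among the treated libraries.

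SIX3 (ENSG00000138083, chromosome 2, 44941898 to 44946077), a homeobox gene of the anterior forebrain and eye field, fell from 249 and 290.3 CPM to 2.68, 9.37, 1.09, 0.472 and 5.61 CPM. That is a log2 fold change of -6.07 ± 0.59 (edgeR adjusted p = 0.00011). DLX5 (ENSG00000105880, chromosome 7, 97020392 to 97024950), a homeobox gene of the border of the neural plate and the placodes, fell from 75.0 and 67.7 CPM to 0.0496, 0.248, 0.19, 0.531 and 1.18 CPM (log2 fold change -7.32 ± 0.43, edgeR adjusted p = 7.1e-06). Within the treated group, the repeat kept more SIX3 than the first run at the same dose. These are bulk libraries, so fewer cells holding an RNA and less of it per cell cannot be told apart.

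**Figure D1:**
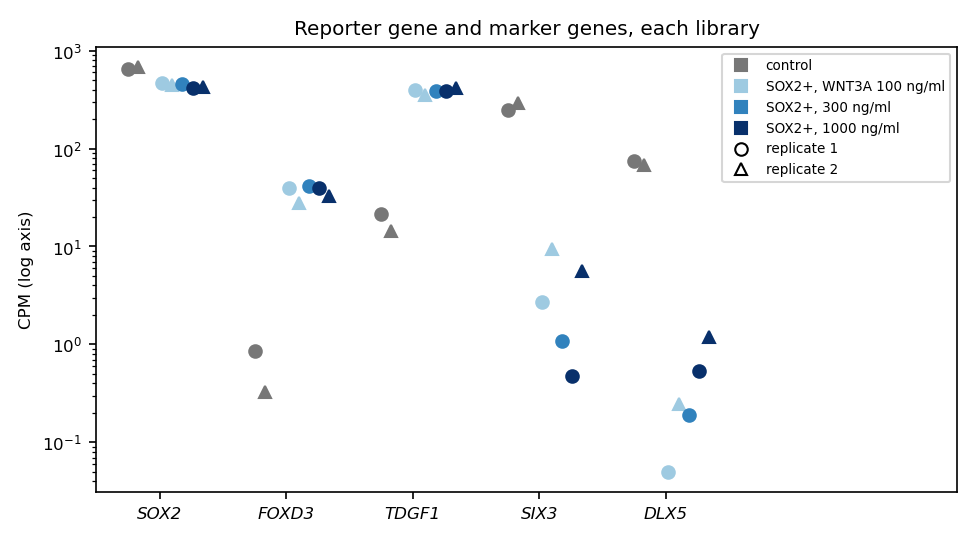
CPM of SOX2 and the 4 marker genes in each of the 7 libraries on a log axis, with control libraries in grey, treated SOX2-positive libraries in blue by WNT3A dose, circles for the first run and triangles for the repeat. FOXD3 and TDGF1 are higher, and SIX3 and DLX5 lower, in all 5 treated libraries than in both controls, while SOX2 moves from 651 and 676 to 418 to 467 CPM.

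Genes were also read by 31 lists of pathways and cell types, whose counts stand against the 15.3% and 13.5% of all tested genes called higher and lower. The lists with most members lower were forebrain and eye field (14 of 16 tested), hedgehog (7 of 10), surface ectoderm and placode (11 of 17) and neural progenitor (11 of 19). Those with most members higher were glycolysis and hypoxia (17 of 20), interferon and antigen presentation (12 of 16), FGF and ERK feedback (10 of 19), primitive streak (7 of 14) and pluripotency (9 of 20). Without control replicate 2, fewer members were called lower in the forebrain list (8) and higher in the interferon (6), FGF and ERK (6) and pluripotency (5) lists. FGF and ERK also had 6 without control replicate 1, and the primitive streak list 11 without WNT3A 100 replicate 2. With all 12 libraries in 1 fit, 11 glycolysis genes and 3 interferon genes were higher, and 5 neural progenitor and 4 hedgehog genes lower. Cell cycle (1 higher and 2 lower of 17) and cholesterol and fatty acid synthesis (1 higher and 1 lower of 16) stood near or below the share of all genes.

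**Figure D2:**
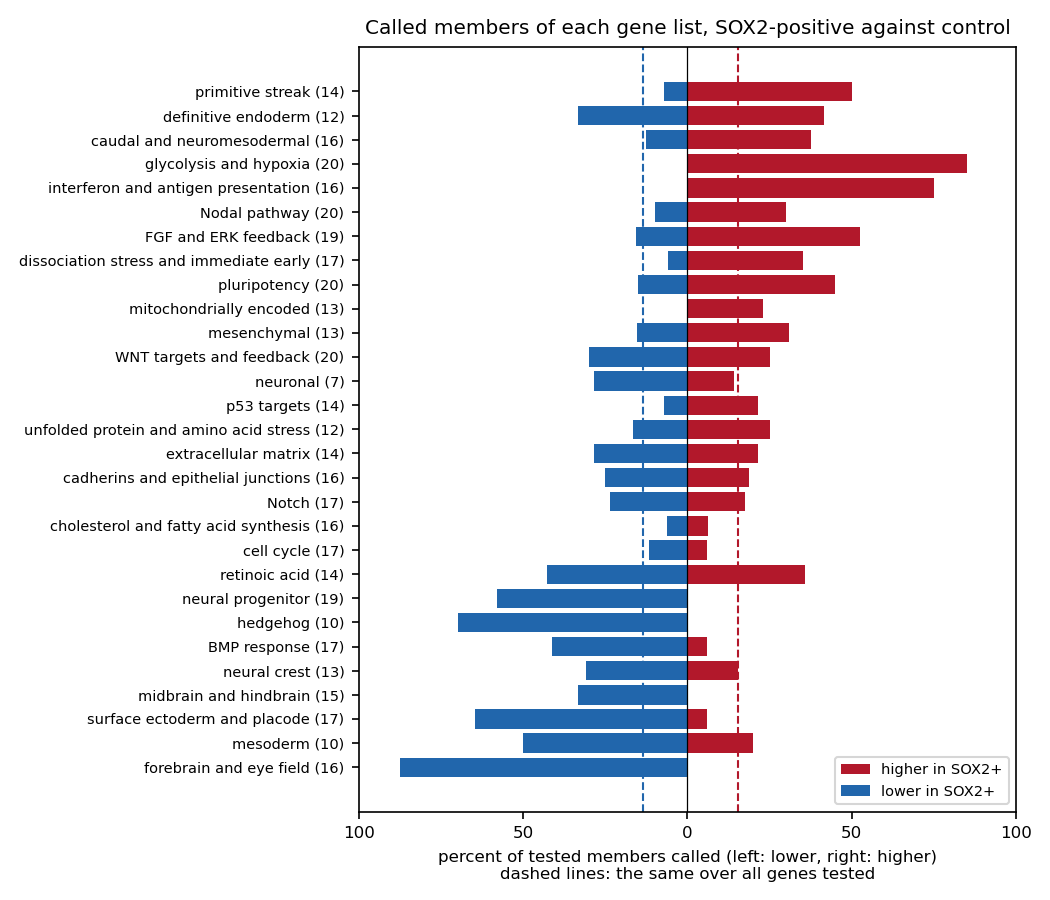
Share of the tested members of each gene list called higher (red, to the right) or lower (blue, to the left) in SOX2-positive treated cells, ordered by median log2 fold change, with the number tested in parentheses. Dashed lines mark the share of all 15760 tested genes called higher (15.3%) and lower (13.5%).

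Among the gene lists, forebrain and eye field had the lowest median and the largest share of members called lower. Of 21 listed forebrain and eye field genes, 16 passed the filter, and 14 of these were lower and none higher, with a median log2 fold change of -3.35 (8 lower and 1 higher without control replicate 2). LHX5, a LIM homeobox gene of the forebrain, went from 356 and 468 CPM to 9.52, 33.9, 2.71, 3.48 and 51.3 CPM (log2 fold change -4.33 ± 0.81, edgeR adjusted p = 0.0037). FEZF1, a zinc-finger gene of the rostral forebrain, went from 451 and 606 CPM to 40.7, 70.9, 17.8, 18.2 and 68.0 CPM (edgeR adjusted p = 0.00051). In both genes the repeat held the 2 highest treated values. RAX, a regulator of the eye field, fell 27.4-fold from 13.5 and 42.9 CPM to between 0.059 and 2.67 CPM. LHX2, a telencephalic regulator, fell 21.7-fold. It was no longer called without control replicate 2 (edgeR adjusted p = 0.052). OTX2, which marks forebrain and midbrain but also the pluripotent epiblast, fell less, from 355 and 346 CPM to 76.1, 101, 52.5, 44.8 and 71.8 CPM (5.05-fold, edgeR adjusted p = 0.00013). HESX1, a repressor of the anterior neural plate, fell 7.0-fold to a narrow range of 9.41 to 11.7 CPM. SHISA2, which encodes a protein that holds back receptors of WNT and FGF, fell 11.3-fold.

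Some of the forebrain genes kept more RNA in the SOX2-positive cells than in the SOX2-negative ones. LHX5 was at 0 to 1.2 CPM in the SOX2-negative libraries, against 2.71 to 51.3 CPM in the SOX2-positive ones (log2 difference 5.62, edgeR adjusted p = 0.0015). FEZF1 was at 0.783 to 2.48 against 17.8 to 70.9 CPM (log2 difference 4.74, edgeR adjusted p = 2.3e-05). In this comparison of the gates, 4875 of 15161 genes tested (32.2%) were called. OTX2 was not called between the gates (log2 difference 0.07, edgeR adjusted p = 0.89), with 24.3 to 93.5 CPM in the SOX2-negative libraries. SIX3 was not called either (log2 difference -0.37, edgeR adjusted p = 0.79).

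Midbrain and hindbrain genes were also lower where they were called. Of 18 listed genes of these regions, 15 passed the filter, 5 were lower and none was higher. LMX1A, a LIM homeobox gene of the roof plate and ventral midbrain, went from 22.3 and 29.9 CPM to 0.347, 0.867, 0, 0.118 and 3.21 CPM (edgeR adjusted p = 0.0021). DMBX1 and LMX1B, both of the midbrain, fell 14.4-fold and 11.7-fold. IRX3, a homeobox gene of the neural plate behind the forebrain, fell 7.16-fold, from 21.2 and 21.3 CPM to between 1.43 and 4.84 CPM (edgeR adjusted p = 0.00047). FGF8 RNA itself was low, at 3.81 and 6.11 CPM in the controls and at most 1.06 CPM in the cells given FGF8 protein.

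General neural progenitor genes fell less. Of 19 tested, 11 were lower and none higher, with a median of -0.72 (5 lower with all 12 libraries in 1 fit). SOX21, a SOX2-related gene of neural progenitors, went from 74.2 and 108 CPM to 2.13, 9.25, 0.665, 1.59 and 14.4 CPM (15.9-fold, edgeR adjusted p = 0.0032). POU3F1, a POU factor of early neural commitment, fell 5.03-fold, N-cadherin, CDH2, 2.46-fold and SOX11 1.99-fold (edgeR adjusted p = 0.0001, 0.00012 and 0.0014). NES, the intermediate filament of neural progenitors, ranged from 258 to 359 CPM across treated libraries and stood at 300.5 and 359 CPM in the controls. DPYSL3, a cytoskeletal protein of growing neurons, fell from 1528 and 1759 CPM to 339 to 589 CPM (edgeR adjusted p = 0.00013). Neuronal genes themselves were mostly under the filter, with 7 of 14 tested. TUBB3 fell 1.97-fold and GAP43, a growth-cone protein, rose 2.7-fold (edgeR adjusted p = 0.002 and 0.00072).

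**Figure D3:**
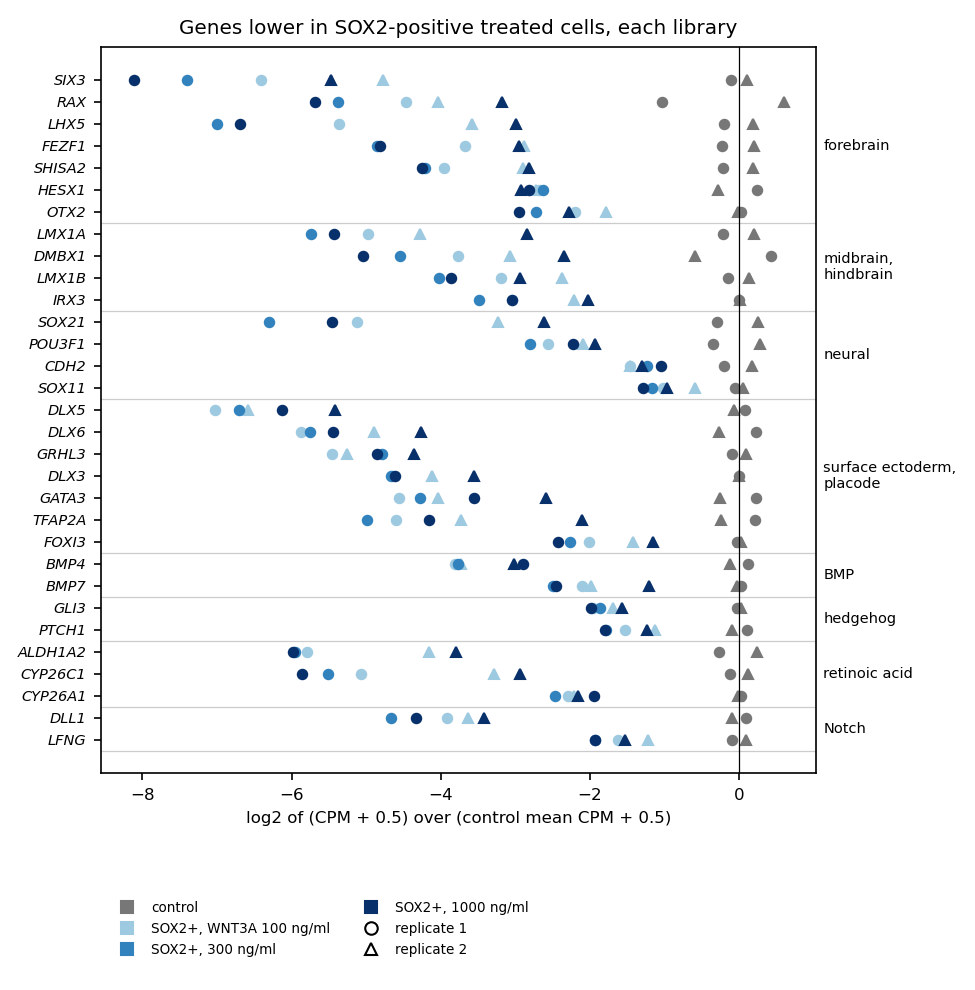
Log2 ratio of each library's CPM to the control mean (0.5 CPM added to both) for genes lower in SOX2-positive treated cells, grouped by the system they belong to, with colours by dose and circles and triangles for the first run and the repeat. All treated libraries lie left of both controls, and in 23 of the 31 genes both repeat libraries lie above all 3 libraries of the first run, an order that 23.1% of all genes called lower show.

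The controls also expressed genes of the non-neural ectoderm and the placodes, and these went down with the neural genes. Of 17 tested, 11 were lower and 1 higher, with a median of -1.78. DLX6, the neighbour of DLX5, went from 37.2 and 26.2 CPM to 0.0496, 0.578, 0.0951, 0.236 and 1.18 CPM (edgeR adjusted p = 7.4e-05). DLX3 fell 31.6-fold and GRHL3, a regulator of surface ectoderm, 36.1-fold. TFAP2A, which specifies surface ectoderm and neural crest, went from 211 and 154 CPM to 7.09, 13.3, 5.28, 9.79 and 42.1 CPM (log2 fold change -3.55 ± 0.59, edgeR adjusted p = 0.0019). Its value in WNT3A 1000 replicate 2 was above those of the other treated libraries. GATA3 went from 82.6 and 59.2 CPM to 2.53, 3.84, 3.18, 5.6 and 11.4 CPM (edgeR adjusted p = 0.00023). HMX2 and HMX3, a linked pair of homeobox genes of the otic placode and hypothalamus, and PDYN, the precursor of dynorphin peptides, fell 24.5-fold, 25.9-fold and 22.3-fold from under 10 CPM.

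Ligand genes of BMP, a signal that favours surface ectoderm over neural tissue, fell. BMP4 went from 62.1 and 52.9 CPM to 3.62, 3.88, 3.75, 7.31 and 6.65 CPM (11.5-fold, edgeR adjusted p = 2.3e-05). BMP7 went from 76.4 and 73.8 CPM to 17.0, 18.6, 12.9, 13.3 and 32.1 CPM (edgeR adjusted p = 0.0008). Of the 17 listed genes of the BMP response, 7 were lower and 1 higher. The 7 include DLX5 and GATA3, whose values are given above, and the ligand gene BMP4, so the count is not separate from those falls. ID1 and ID3, direct targets of BMP signalling, were not called (log2 fold change 0.11 ± 0.16 and 0.12 ± 0.20, edgeR adjusted p = 0.62 and 0.68).

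Hedgehog components were lower in 7 of 10 tested with none higher (4 lower with all 12 libraries in 1 fit), while the ligand genes SHH, IHH and DHH did not pass the filter. GLI3, a transcription factor that acts as a repressor without the ligand, fell from 136 and 141 CPM to 35.4, 42.7, 37.7, 34.6 and 46.5 CPM (3.52-fold, edgeR adjusted p = 1.2e-05). The receptor PTCH1 fell 2.79-fold and the co-receptor GAS1 2.96-fold (edgeR adjusted p = 0.0003 and 0.0018). In the retinoic acid list 6 of 14 were lower and 5 higher. ALDH1A2, a synthesis enzyme, went from 47.2 and 67.5 CPM to 0.545, 2.73, 0.428, 0.413 and 3.67 CPM (35.4-fold, edgeR adjusted p = 0.00022). Enzymes of retinoic acid breakdown fell too, CYP26C1 17.3-fold and CYP26A1 4.65-fold. The 2 other synthesis enzymes were higher from low levels, ALDH1A1 from 0.152 and 0.22 to 1.67 to 2.53 CPM and ALDH1A3 from 0.66 and 0.0366 to 2.73 to 7.02 CPM (edgeR adjusted p = 0.00077 and 0.0064).

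Among Notch genes, 3 of 17 were higher and 4 lower, with a median of -0.07, against 15.3% higher and 13.5% lower over all genes tested. The ligand DLL1, which has 2 identifiers in the table, fell from 69.7 and 61.2 CPM to between 2.09 and 5.66 CPM (16.9-fold, edgeR adjusted p = 1.5e-05). LFNG, which modifies Notch receptors, fell 3.12-fold, and HEY2, a Notch target, rose 10.4-fold (edgeR adjusted p = 0.00018 and 0.0015). PKDCC, a secreted tyrosine kinase, fell from 818 and 922 CPM to 47.5 to 139.6 CPM (10.0-fold, edgeR adjusted p = 0.00014). HAPLN1, which links hyaluronan to proteoglycans in the matrix, fell 30.2-fold from 32.9 and 39.7 CPM.

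Pluripotency genes rose in part, with 9 of 20 higher and 3 lower, and a median of 0.49 (5 higher without control replicate 2). POU5F1, the partner of SOX2 in pluripotent cells, went from 503 and 429 CPM to 1556, 991, 1808, 1928 and 1279.8 CPM (3.24-fold, edgeR adjusted p = 0.00086). Its symbol sums 4 identifiers, and processed copies elsewhere in the genome can share its reads. NANOG went from 10.0 and 6.7 CPM to 62.5, 30.4, 88.6, 118 and 36.4 CPM (8.09-fold, edgeR adjusted p = 0.0034, or 0.061 without control replicate 2). GDF3, a TGF-beta family ligand of pluripotent cells, went from 1.78 and 1.43 CPM to 19.2, 6.15, 38.3, 69.4 and 22.7 CPM (19.4-fold, edgeR adjusted p = 0.0068). It missed the threshold without either control (adjusted p = 0.054 and 0.09). DPPA4, a chromatin factor of pluripotent cells, was 2.11-fold higher, at 752 to 816 CPM in treated libraries against 393 and 356 CPM. L1TD1, an RNA-binding protein of these cells, rose 2.59-fold (edgeR adjusted p = 0.0019, or 0.086 with all 12 libraries in 1 fit). For NANOG and GDF3 the first run held higher values than the repeat at a given dose.

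Not all of the list moved up. LIN28A, an RNA-binding protein that blocks let-7 maturation, fell from 3364 and 3617 CPM to 1815, 1833, 1709.7, 1689.7 and 1823 CPM (1.97-fold, edgeR adjusted p = 4.2e-05). SALL4, a zinc-finger factor, fell 1.94-fold (edgeR adjusted p = 0.00034), and SOX2 was the third. PRDM14 stood at 58.0 to 84.5 CPM against 108 and 86.5 CPM (edgeR adjusted p = 0.054, or 0.047 with the run as a block). DNMT3B, the de novo DNA methyltransferase of pluripotent cells, was not called (log2 fold change 0.18 ± 0.10, edgeR adjusted p = 0.2). The controls held pluripotency RNA too. The summed CPM of 8 such genes (POU5F1, NANOG, PRDM14, TDGF1, DPPA4, LIN28A, ZFP42 and DNMT3B) was 5813 and 5871 in the controls, 5713 to 6542 in SOX2-positive and 2373 to 3509 in SOX2-negative libraries. LIN28A made up most of the control sum, so in the SOX2-positive sum its fall offsets the rises of other members.

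The NANOG promoter is shown because it carries the composite element at which POU5F1 and SOX2 bind side by side. The RefSeq sequence on GRCh38.p14 was searched in the 250 bases before the start of each gene, on both strands, for the SOX site CATTGTN followed directly by the octamer part ATGCAAA. Of 35116 promoters 2 held it (0.006%), and of the 14 pluripotency genes with an entry NANOG alone. Capitals mark the match on the gene's strand, where it reads in reverse, beginning 120 bases before the start.
NANOG, chr12:7789262-7789315: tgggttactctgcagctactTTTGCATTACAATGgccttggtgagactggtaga
The match describes these letters only, and binding was not measured.

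Nodal pathway genes moved in part. Of 20 tested, 6 were higher and 2 lower, with a median of 0.73, the same with LEFTY1 at its lower bound (3 higher and none lower without control replicate 1, 2 and none without control replicate 2). FOXH1, the DNA-binding partner of the Nodal effectors, rose from 69.9 and 61.3 CPM to 130.1, 121, 113, 118 and 134 CPM (1.88-fold, edgeR adjusted p = 0.00024, or 0.078 with all 12 libraries in 1 fit). SKIL, a feedback repressor of the pathway, rose from 69.6 and 46.7 CPM to 118 to 251 CPM (edgeR adjusted p = 0.0045, or 0.076 without control replicate 2). NODAL stood at 0.965 and 0.732 CPM in the controls and at 2.38, 1.61, 6.94, 15 and 2.53 CPM in the treated libraries. It missed the threshold (edgeR adjusted p = 0.051) and passed it with the run as a block (adjusted p = 0.039). LEFTY1, an antagonist of Nodal and one of its targets, had no count in either control and was at 0.843, 0, 2.9, 5.66 and 0.272 CPM in treated libraries. The groups overlap at 0, and the difference was called with the run as a block (edgeR adjusted p = 0.023) and not without it (0.062).

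Primitive streak genes appeared at low level. Of 14 tested, 7 were higher and 1 lower, with a median of 3.5 (11 higher without WNT3A 100 replicate 2). EOMES (ENSG00000163508, chromosome 3, 27715949 to 27722711), a T-box regulator of the streak and endoderm, went from 0.203 and 0.0732 CPM to 14.6, 6.28, 26.8, 49.2 and 9.19 CPM (log2 fold change 7.30 ± 1.24, edgeR adjusted p = 0.0022). TBXT, the T-box gene of streak and early mesoderm, went from 0.508 and 0.768 CPM to 8.48, 1.2, 13.9, 26.5 and 4.03 CPM (16.4-fold, edgeR adjusted p = 0.025). MIXL1, a homeobox gene of the streak, went from 0.254 and 0.22 CPM to 6.0, 0.826, 10.9, 18.9 and 1.72 CPM (31.6-fold, edgeR adjusted p = 0.022). In all 3 the first run was higher than the repeat and its values rose in the order of dose. The calls of TBXT and MIXL1 were lost without control replicate 1 (adjusted p = 0.14 and 0.11), without control replicate 2 (0.16 and 0.17) and with all 12 libraries in 1 fit (0.07 and 0.097). EVX1 and LHX1, regulators of the posterior streak and of the organizer, rose 18.9-fold and 11.8-fold, from under 1 CPM (edgeR adjusted p = 0.0012 and 0.00052).

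Endoderm genes were present at a small fraction of their level in the SOX2-negative cells. SOX17, which directs definitive endoderm, had no count in either control and reached 1.78, 3.01, 4.56, 3.36 and 8.46 CPM, at least 67.6-fold higher against 3 counts over the control group (edgeR adjusted p = 0.001). That level was 0.786% of the SOX2-negative mean, where SOX17 lay at 340.2 to 829 CPM (edgeR adjusted p = 3.8e-07). FOXA2, a pioneer factor of endoderm, stood at 0.152 and 0 CPM in the controls, 1.73 to 7.02 CPM in SOX2-positive cells and 126 to 271 CPM in SOX2-negative cells, so that SOX2-positive cells had 2.4% of that level. The shares were 1.29% for GATA6, 2.18% for LHX1, 3.53% for EVX1, 8.81% for EOMES and 8.96% for CST1, a secreted cysteine protease inhibitor. They ran higher for MIXL1 (15.8%) and TBXT (41.0%) and reached 101% for TDGF1. A transfer of SOX2-negative cells in the sort was not tested.

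Not all of the endoderm list rose, with 5 of 12 higher, 4 lower and a median of 3.07, the same with SOX17 at its lower bound (2 lower without control replicate 2). PRDM1, a transcriptional repressor expressed in endoderm, germ cells and placode, fell from 30.0 and 30.4 CPM to 1.49 to 2.13 CPM (16.2-fold, edgeR adjusted p = 2.1e-06), while SOX2-negative libraries had 66.8 to 138 CPM. HHEX, a homeobox gene of anterior endoderm, fell 3.95-fold (edgeR adjusted p = 0.0015). The summed CPM of 9 endoderm markers (SOX17, FOXA1, FOXA2, GATA4, GATA6, CXCR4, HHEX, PRDM1 and CER1) was 59.9 and 60.2 in the controls, 17.9 to 38 in SOX2-positive and 959 to 1611 in SOX2-negative libraries. PRDM1 alone gave 30.0 and 30.4 CPM of the control sums.

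Mesoderm and vascular genes split. KDR, the VEGF receptor of vascular and early mesodermal cells, which human pluripotent cells also express, went from 7.67 and 10.5 CPM to 108, 96.3, 159.8, 190.2 and 142 CPM (15.2-fold, edgeR adjusted p = 4.2e-05). SOX2-negative cells had 20 to 271 CPM, a difference that was not called (edgeR adjusted p = 0.44). APLNR, the apelin receptor of early mesoderm, rose 13.8-fold to 3.72 to 17.7 CPM, 2.32% of the SOX2-negative level. TCF15, a helix-loop-helix factor of paraxial mesoderm and of primed pluripotent cells, rose 3.88-fold (edgeR adjusted p = 0.002). PDGFRA, a receptor of mesenchymal cells, fell 4.09-fold (edgeR adjusted p = 0.00045). Of the 10 mesoderm genes tested, 2 were higher and 5 lower (3 lower without control replicate 2).

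**Figure D4:**
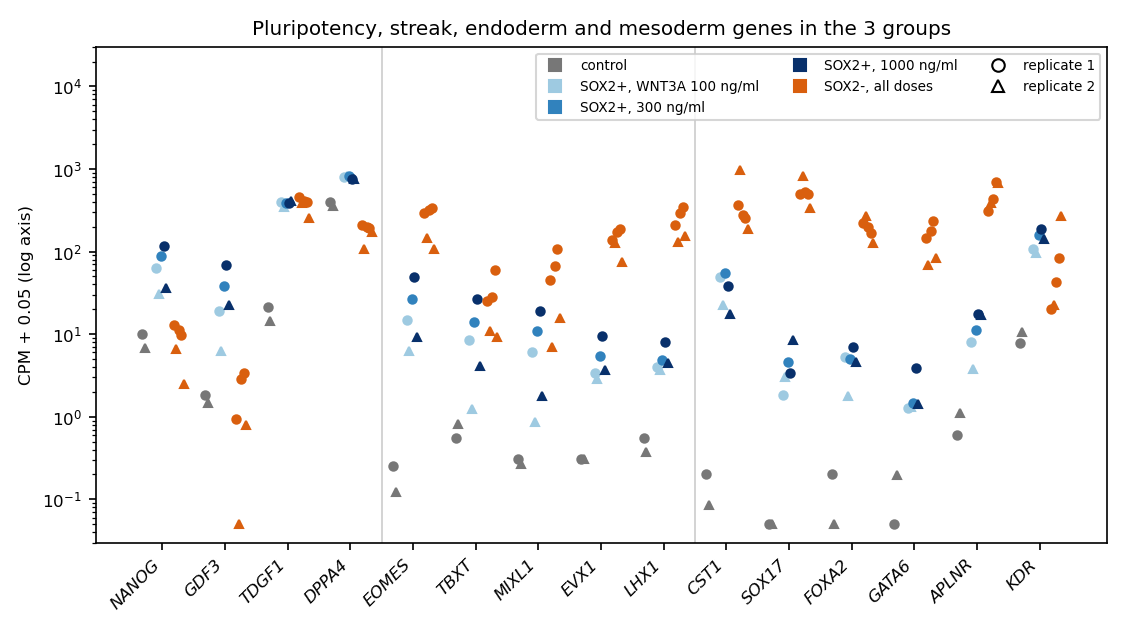
CPM plus 0.05 on a log axis in every control (grey), SOX2-positive (blue, by dose) and SOX2-negative (orange) library, for pluripotency genes (left), streak genes (middle) and CST1 with endoderm, mesoderm and vascular genes (right), with circles for the first run and triangles for the repeat. TDGF1 lies at 349 to 411 CPM in SOX2-positive and 253 to 461 CPM in SOX2-negative libraries, while SOX17, FOXA2 and GATA6 are below 10 CPM in every SOX2-positive library.

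Some genes of the posterior axis rose from low levels. NKX1-2, a homeobox gene of the caudal epiblast, rose from 3.2 and 2.12 CPM to 16.1, 15.9, 19.6, 20.2 and 24.4 CPM (7.29-fold, edgeR adjusted p = 7.1e-05). WNT8A rose 10.3-fold to 1.32 to 2.83 CPM (edgeR adjusted p = 0.0063). Of 16 caudal and neuromesodermal genes tested, 6 were higher and 2 lower, with a median of 2.00, the same with CDX1 at its lower bound. None of the 39 listed HOX genes, which give cells their position along the body axis, passed the filter. Their counts summed to 11 in the controls and 87 in the 5 SOX2-positive libraries (0.858 CPM), against 1835 in the 5 SOX2-negative ones (17.5 CPM), of which 1 library held 1288.

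Target and feedback genes of FGF and WNT signalling were called in both directions. Of 19 genes of FGF and ERK feedback, 10 were higher and 3 lower, with a median of 0.62 (6 higher without either control). DUSP6, a phosphatase that inactivates ERK, went from 3.56 and 3.81 CPM to 69.9, 27.0, 94.1, 99.8 and 18.1 CPM (16.7-fold, edgeR adjusted p = 0.0034, or 0.053 without control replicate 2). SPRY4, a feedback inhibitor of receptor tyrosine kinases, went from 11.0 and 15.3 CPM to 83.5, 54.0, 122, 116 and 51.0 CPM (6.45-fold, edgeR adjusted p = 0.00099). The repeat was lower in both. SPRY2, SPRY1 and the ETS factor ETV1 rose 2.65-fold, 2.49-fold and 2.38-fold. DUSP4, another ERK phosphatase, fell 4.43-fold to 5.33 to 11.1 CPM (edgeR adjusted p = 0.0002), while SOX2-negative cells had 72.1 to 134 CPM.

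Among 20 WNT target and feedback genes, 5 were higher and 6 lower, with a median of 0.32 (2 and 2 without control replicate 1, 3 and 1 without control replicate 2). AXIN2, a general feedback target of beta-catenin, rose only 1.51-fold, from 27.8 and 29.5 CPM to 48.3, 41.4, 46.8, 45.7 and 34.9 CPM (edgeR adjusted p = 0.0092). Its call was lost without either control (adjusted p = 0.073 and 0.067), at WNT3A 1000 alone (0.1) and with all 12 libraries in 1 fit (0.32). NKD2, a WNT feedback inhibitor, rose 2.08-fold, and SFRP2, a secreted WNT-binding protein, 2.05-fold to 328 to 471 CPM (edgeR adjusted p = 0.0015 and 0.0034). TNFRSF19, a receptor induced by WNT in several tissues, fell 7.01-fold (edgeR adjusted p = 0.0034). DKK1, a secreted WNT inhibitor and target, fell 6.38-fold to 0.785 to 3.3 CPM (edgeR adjusted p = 0.0034, or 0.075 without control replicate 2) and stood at 9.68 to 65.3 CPM in the SOX2-negative cells.

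Some of the highest rises were in genes of none of the 31 lists. NTS, the precursor of neurotensin, went from 1.02 and 0.622 CPM to 62.2, 36.8, 83.4, 95.6 and 43.3 CPM (80.2-fold, edgeR adjusted p = 6.7e-05). CST1 went from 0.152 and 0.0366 CPM to 49.7, 22.8, 55.5, 37.9 and 17.6 CPM (402-fold from 4 control counts, edgeR adjusted p = 0.00011). SYT4, a synaptotagmin of vesicle release, rose 59.8-fold to 24.0, 27.0, 33.7, 47.6 and 50.3 CPM. It was higher than in SOX2-negative cells as well, where it stood at 0.428 to 5.85 CPM (edgeR adjusted p = 0.00018). PCED1B rose 58.9-fold to 3.51 to 7.56 CPM. Of the 12 genes listed for unfolded protein and amino acid stress, 3 were higher and 2 lower, with a median of 0.14 (1 higher and at most 1 lower without control replicate 1, control replicate 2 or WNT3A 100 replicate 1). VLDLR, a lipoprotein and reelin receptor of that list, rose 8.26-fold to 47.1 to 89.3 CPM (edgeR adjusted p = 0.0001).

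Glycolysis and hypoxia genes were higher in 17 of 20 tested with none lower and a median of 0.99 (11 higher with all 12 libraries in 1 fit). LDHA, which makes lactate, went from 147 and 183 CPM to 749, 792, 599.8, 639 and 906 CPM (4.46-fold, edgeR adjusted p = 5.4e-05). PDK1, the kinase that keeps pyruvate out of mitochondria, went from 12.4 and 12.4 CPM to 72.1, 78.5, 83.8, 90.6 and 81.6 CPM (6.56-fold, edgeR adjusted p = 2.1e-06). PKM, pyruvate kinase, rose 3.15-fold to 1363 to 1594 CPM and PGK1, phosphoglycerate kinase, 2.54-fold. BNIP3, a mitophagy receptor, and ADM, the peptide adrenomedullin, both induced by hypoxia, rose 4.02-fold and 5.9-fold. AK4, a mitochondrial adenylate kinase that is not in this list, went from 3.76 and 4.46 CPM to 159, 110, 200.2, 199 and 91.1 CPM (36.7-fold, edgeR adjusted p = 4e-05). No difference between the gates was called for PKM, LDHA or BNIP3 (edgeR adjusted p = 0.9, 0.06 and 0.7). SLC2A3, a glucose transporter, rose 2.23-fold to 584 to 668 CPM but stood at 1651 to 2284 CPM in the SOX2-negative cells.

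The start regions of 3 of these genes are shown because they hold copies of the core at which hypoxia-inducible factors bind, ACGTG. The core was found on either strand in the 250 bases before the start in 15 of 26 RefSeq promoters of this list (57.7%), covering 12 of the 17 genes with an entry. It was in 18.5% of all 35116 promoters and in 21.4% of those of the genes tested, and in 40.0% of the 15 promoters of the pluripotency list. Capitals mark the core in either direction, with overlapping copies joined, on the gene's strand (GRCh38.p14).
PDK1, chr2:172556053-172556089: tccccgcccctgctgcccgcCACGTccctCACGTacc
PGK1, chrX:78104026-78104089: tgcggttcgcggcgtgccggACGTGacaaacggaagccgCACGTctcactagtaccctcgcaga
BNIP3, chr10:131982032-131982077, minus strand: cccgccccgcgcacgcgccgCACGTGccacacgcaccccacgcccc
These are matches of letters, and neither oxygen nor factor binding was measured.

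Genes of antigen presentation and the interferon response were higher in 12 of 16 tested with none lower and a median of 0.79. Only 6 were called without control replicate 2 and 3 with all 12 libraries in 1 fit. B2M, the light chain of class I molecules, went from 21.9 and 22.2 CPM to 41.1, 32.5, 42.6, 42.3 and 42.9 CPM (1.82-fold, edgeR adjusted p = 0.0011). PSMB8, an immunoproteasome subunit, rose 3.6-fold to 4.85 to 6.94 CPM and was at most 0.342 CPM in SOX2-negative cells (edgeR adjusted p = 0.0013 and 1.4e-05). With all 12 libraries in 1 fit PSMB8 was not called (edgeR adjusted p = 0.093). B2M and PSMB8 each sum several identifiers of alternate copies of their locus.

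**Figure D5:**
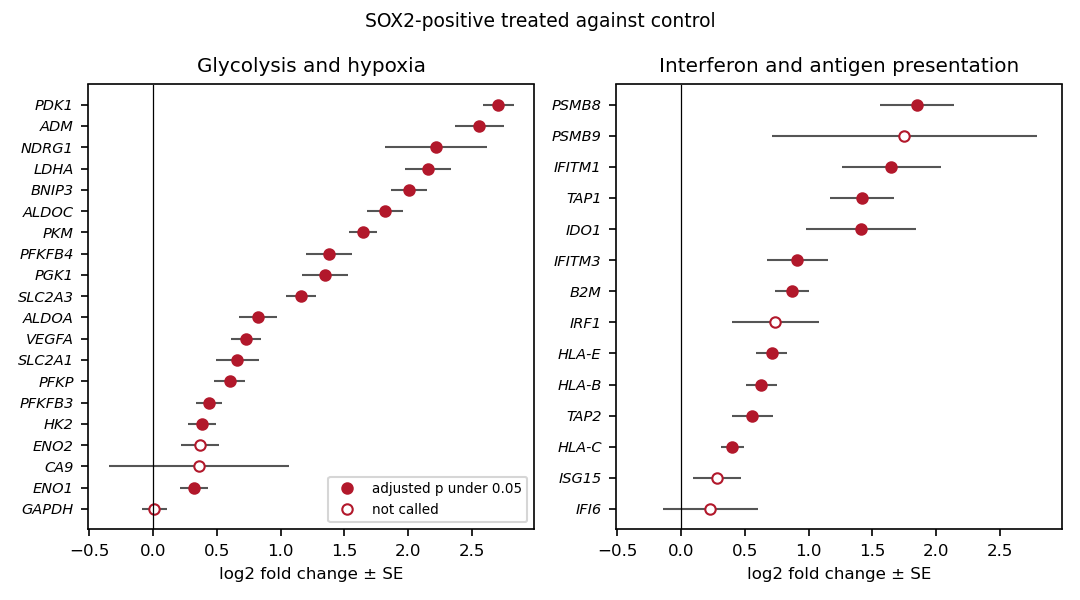
Log2 fold change with its SE (bars) of members of the glycolysis and hypoxia list (left) and the interferon and antigen presentation list (right), filled where the adjusted p was under 0.05. In both panels no called gene was lower, and the largest changes were in PDK1 and ADM on the left and PSMB8 on the right.

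Immediate early, stress and mitochondrial genes were called in part, against 15.3% higher and 13.5% lower over all genes tested. Effects of treatment and of handling on them cannot be told apart. Of 17 immediate early and dissociation stress genes, 6 were higher and 1 lower, with a median of 0.56 (1 higher without control replicate 2). FOS stood at 73.5 and 6.51 CPM in the controls and at 255, 66.9, 181, 218 and 182 CPM in the treated libraries (edgeR adjusted p = 0.06, or 0.01 with the run as a block). JUN rose 5.63-fold, from 9.09 and 14.2 CPM to 73.6, 25.5, 60.7, 106 and 65.3 CPM (edgeR adjusted p = 0.0037, or 0.097 with all 12 libraries in 1 fit). Their part in the other results was not tested. Mitochondrially encoded RNA made up 4.22% and 2.79% of the control libraries and 4.54% to 5.63% of the treated ones, and 3 of its 13 genes were called higher (9 without control replicate 1, none without control replicate 2). MT-CO1, a subunit of cytochrome oxidase, went from 12829 and 9342 CPM to 14681 to 20521 CPM (edgeR adjusted p = 0.023). It was not called without control replicate 2 (adjusted p = 0.23), by limma (0.056), at WNT3A 1000 alone (0.068) or with all 12 libraries in 1 fit (0.061). Of 14 targets of p53, 3 were higher and 1 lower (1 higher without control replicate 2).

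Called matrix and junction genes went in both directions. The counts below stand against 15.3% called higher and 13.5% called lower over all genes tested. Of 14 extracellular matrix genes tested, 3 were higher and 4 lower, with a median of 0.03 (2 higher and 1 lower without control replicate 2, 2 and 2 without control replicate 1). Of 16 cadherin and junction genes, 3 were higher and 4 lower, with a median of -0.01 (2 and 3 without control replicate 2), and of 13 mesenchymal genes, 4 were higher and 2 lower (none lower without control replicate 2). Fibronectin, FN1, rose from 69.7 and 74.5 CPM to 197, 266, 351, 389.6 and 501 CPM (4.72-fold, edgeR adjusted p = 0.00087), against 4986 to 13575 CPM in the SOX2-negative cells. The collagen I genes COL1A2 and COL1A1 rose 3.66-fold and 2.75-fold. CDH6, a cadherin of neural plate and crest, fell 5.03-fold, from 168 and 147 CPM to 21.2 to 45 CPM (edgeR adjusted p = 8e-05), and was at 0.909 to 1.67 CPM in SOX2-negative cells. EPCAM, an epithelial adhesion protein of pluripotent cells, rose 1.63-fold (edgeR adjusted p = 0.0022).

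Within the SOX2-positive cells, dose was tested as a slope on log10 WNT3A over the 5 treated libraries. No gene of 15044 was called by edgeR (0%), with 514 at an unadjusted p under 0.05 and a smallest adjusted p of 0.65. With the run as a block, 106 genes were called, 80 rising and 26 falling with dose. Without the block DESeq2 called 24. Among the genes called with the block, and chosen after their values were seen, TBXT rose by 1.68 log2 units per 10-fold dose (edgeR adjusted p = 0.0056) and GDF3 by 1.86 (0.00077). SYT4 rose by 0.94 and IFITM1, an interferon-induced membrane protein, by 0.96 per 10-fold dose (edgeR adjusted p = 0.0057 and 0.0017). OTX2 fell by 0.63 per 10-fold dose (edgeR adjusted p = 0.034). FOXD3 and TDGF1 both had a slope of 0.10 with the block (edgeR adjusted p = 0.74 and 0.68).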

How the data were processed

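RNA was poly-A selected and sequenced as paired reads of 150 bases, per the labels' protocols. The authors deposited estimated counts per Ensembl gene, made with Salmon and GRCh38 per the submitters' processing notes. Salmon's version, the annotation and the strand setting are not given in the sources used here, so overlapping and antisense genes (SOX2-OT around SOX2, the antisense neighbours of DLX6 and SIX3) may share reads.

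Samples were grouped by their titles. The 37951 identifiers were summed to 35940 symbols (1034 with several identifiers) and rounded. Genes passing filterByExpr (minimum count 10, minimum total 15) were tested, two-sided, with edgeR 4.0.16 (R 4.3.3) after TMM scaling, with Benjamini-Hochberg adjustment over all genes tested and a threshold of 0.05. On simulated counts with 2-fold, 4-fold and 8-fold changes, the test of treatment recovered 62%, 87.9% and 96.7% of the changed genes among 15484. Of the genes called there, 6.4% were unchanged ones. The simulated counts were drawn independently, without a run effect shared between genes. Only 71, 66 and 60 genes were changed there by these factors, against 28.8% of tested genes called in the data. The rates need not hold at that larger share. Totals were 16474856 to 28079048 over the 12 libraries. Bounds against a group without counts use 3 counts over the group and cover counting error only.

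Replicate numbers were read as the first run and its repeat, since the series' design text says that all conditions but the middle dose were repeated. No label ties single libraries to a day or batch. Deviations from the group means of libraries of 1 run correlated across 16335 genes at 0.02 (control and WNT3A 100), 0.05 (control and WNT3A 1000) and 0.25 (WNT3A 100 and 1000), so the pairing of controls with treated libraries rests on that text and not on the data. Replicates differed beyond sampling noise (chi-square per degree of freedom 22.8 to 30).

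The members, the 31 gene lists and the naming rule were chosen with earlier results of these data known. The rule took 5 marker genes, the 12 largest fold changes in each direction with at least 5 CPM and no overlap, the 8 largest CPM differences in each direction, and up to 4 called members of each list. It took 78 of the 122 genes named, and the other 44 were chosen after their values were seen. Alternatives were DESeq2 1.42.0, limma 3.58.1, other size factors, no filter, identifiers kept apart, a replicate block, single doses, all 12 libraries in 1 fit, dose as a factor for the gates, and leaving out each library. Coordinates are from GENCODE 29 and promoters from RefSeq. Some genes that belong to the lists are not reported here by name.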

Additional observations from a re-analysis of the deposited data

Results flagged for a closer look

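Among the 122 genes whose treated values are named, 6 had 1 SOX2-positive library far from the other 4. The gap to the nearest library, divided by the range of the 5, passed Dixon's 95% critical value of 0.71. Chance alone gives this in about 1 group in 20. WNT3A 1000 replicate 2 was the highest library for TFAP2A (42.1 CPM, others 5.28 to 13.3), DKK1 (3.3 CPM, others 0.785 to 1.24) and LMX1A (3.21 CPM, others 0 to 0.867). LHX2 was highest in WNT3A 100 replicate 2 (0.826 CPM, others 0.0475 to 0.177), and B2M was lowest there (32.5 CPM, others 41.1 to 42.9). GATA6 was highest in WNT3A 1000 replicate 1 (3.89 CPM, others 1.24 to 1.43).

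For 11 genes, every SOX2-positive library lay on one side of both controls and every SOX2-negative library on the other. Of all genes called for treatment and tested between the gates, 292 of 4398 (6.64%) had this order with a call in both comparisons, against 11 of the 106 named ones (10.4%). The gates were compared with edgeR's quasi-likelihood test. Both gates were set against the same 2 controls. The genes higher in SOX2-positive cells were PSMB8 (log2 difference 4.95, adjusted p = 1.4e-05), GAP43 (3.01, adjusted p = 2e-07), SFRP2 (2.74, adjusted p = 8.6e-07), DPPA4 (2.17, adjusted p = 1.4e-06) and the ERK-responsive ETS factor ETV1 (2.00, adjusted p = 4.6e-05). Those lower in SOX2-positive cells were PRDM1 (-5.90, adjusted p = 2.3e-08), GATA3 (-4.90, adjusted p = 1.6e-06), IRX3 (-4.16, adjusted p = 1.7e-06), DUSP4 (-3.80, adjusted p = 4.1e-07), TNFRSF19 (-3.43, adjusted p = 0.00012) and CDH2 (-3.22, adjusted p = 6.3e-08).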

How the results depend on the processing

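The count of 4533 genes called between SOX2-positive treated and control libraries ranged from 1850 to 4793 when each library was left out in turn. It was 2841 with WNT3A 100 alone, 2188 with WNT3A 1000 alone and 1531 with all 12 libraries in 1 fit. Leaving out a control leaves 1 library in that group, whose spread is then assumed to be that of the treated ones. The dose slope gave 0 calls, also without any 1 library, but 24 with DESeq2 and 12 with no filter. The 4875 calls between the gates ranged from 4004 to 6729 with each library left out. With the run as a replicate block the 3 counts were 5104, 106 and 5080, and no gene named as called lost its call. Of the 122 genes named for treatment, 113 were called, and 89 of these kept the call under all alternatives. The call was lost for 19 without control replicate 2, 8 without control replicate 1, 11 with all 12 libraries in 1 fit, 1 with DESeq2 and none without any 1 treated library. Log2 values that were not called changed sign with 1 library left out for ID1 (-0.02 to 0.26), NES (-0.20 to 0.06) and SOX10 (-0.36 to 0.24), each without control replicate 2, and for the dose slope of FOXD3 (-0.17 to 0.27). The same held between the gates for OTX2 (-0.15 to 0.22), PKM (-0.10 to 0.16) and SIX3 (-1.0 to 0.68). With WNT3A 100 alone ID1 was at -0.02 and ID3 at -0.09, and with dose as a factor SIX3 was at 0.17 between the gates. The cause was not tested.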

Other observations

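Other genes that the naming rule took are given here as values. MAGEB17, an X-linked gene of the MAGE family, had 1 count in the controls and reached 5.35, 1.28, 10.6, 23.7 and 4.8 CPM in the treated libraries (edgeR adjusted p = 0.0059, or 0.086 without control replicate 2). NPAP1, an imprinted gene of the Prader-Willi region, went from 0.254 and 0.22 CPM to 4.36, 1.65, 12, 19.3 and 2.44 CPM (edgeR adjusted p = 0.013, or 0.082 and 0.13 without control replicates 1 and 2). Both followed the streak genes in having higher values in the first run than in the repeat at a given dose. PPIAP46 is annotated as a pseudogene, and reads of its parent gene can count towards it. It stood at 0.102 and 0 CPM in the controls and at 1.61 to 12.7 CPM in the treated libraries.

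Some of the most abundant RNAs moved by small factors. PODXL, a surface sialomucin of pluripotent cells, rose 2.11-fold from 713 and 610.2 CPM to 1043 to 1732 CPM (edgeR adjusted p = 0.0041, or 0.063 without control replicate 2). SFRP1, a secreted WNT-binding protein, fell 2.33-fold from 1233 and 1384 CPM to 629, 932, 396, 303 and 551 CPM (edgeR adjusted p = 0.019, or 0.07 and 0.14 without control replicates 1 and 2). The translation factor EEF1G fell 1.43-fold and the beta-tubulin TUBB, which sums 4 identifiers, 1.3-fold (edgeR adjusted p = 0.0081 and 0.015, or 0.12 and 0.2 without control replicate 2).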
